A study of Mus musculus with 22 samples.

Results

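The first 32 Mb of the sequenced part of mouse chromosome 3 were followed here in chromatin immunoprecipitation libraries of whole testis. The members are the 50 kb windows of chromosome 3 that start at or after 3 Mb and before 35 Mb in build mm10, chr3:3000001-35000000. They are 640 of the 54520 windows counted over 21 chromosomes. The windows were chosen by position alone, because this arm lies next to the centromere at which chromosome 3 is joined to chromosome 1 in 1 of the crosses. They overlap 104 of the 21887 protein-coding genes placed on windows.

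A Robertsonian translocation joins a pair of acrocentric chromosomes at their centromeres. In a heterozygous carrier the joined chromosome pairs in meiosis with both of its free partners, and the stretches next to the centromere are known to synapse late or not at all. γH2AX, the phosphorylated form of the histone variant H2AX, marks DNA breaks and, in spermatocytes, chromosome segments that have not synapsed, above all the X and Y chromosomes. H3.3 is a histone H3 variant laid down outside DNA replication, known for its place at active genes and on silenced sex chromatin.

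The γH2AX libraries came from mice of 4 weeks and the H3.3 libraries from mice of 6 weeks. For γH2AX, 1Rb_M (3 libraries) was the F1 of CBy.RBF-Rb(8.12)5Bnr/J mated to B6.SPRET7MOLF12 and 1Rb_P (3 libraries) was the F1 of C57BL/6J mated to CBy.RBF-Rb(8.12)5Bnr/J, both heterozygous for 1 translocation, Rb(8.12). The 3Rb group (3 libraries for each mark) was the F1 of B6.SPRET7MOLF12 mated to RBF/Dnj, heterozygous for 3 translocations. RBF/Dnj mice are known to carry 1 that joins chromosomes 1 and 3, so chromosome 3 is joined in 3Rb and free in every other group. For H3.3, the other groups were 1Rb (3 libraries, the same cross as 1Rb_M) and Cg, the parental line B6.SPRET7MOLF12 (3 libraries). The single B6 γH2AX library, from C57BL/6J, carries another supplier's name for its antibody (Upstate in place of Millipore) and is described only. Input libraries numbered 1 each for 1Rb_M, Cg and B6, and none came from 3Rb. The strain given for the input named 1Rb_M is that of 1Rb_P, so which of these crosses it stands for is not settled by the labels. The labels do not say that libraries of a group came from separate animals, so the p-values measure the spread between these libraries, which may be technical.

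The X chromosome, where γH2AX is known to be dense in spermatocytes, took 12.3% to 20.6% of the γH2AX counts, 5.51% to 6.34% of the H3.3 counts and 3.16% to 3.17% of the input counts, so the γH2AX label fits the libraries. The 1Rb_M libraries differed here, with 12.3% in replicates 1 and 2 and 18.9% in replicate 3. Library totals ran from 21535147 to 128348440 counts for the antibody libraries, the lowest being B6, and from 11876426 to 51651953 for the inputs. The median window of the region held 269 counts in B6 and 511 to 1535.5 in the other antibody libraries, so counting error alone was 2.55% to 7.25% of a window's value over all libraries, inputs included.

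The region is gene-poor. Only 264 of its windows (41.25%) overlap a protein-coding gene, against 54.7% of all windows, and 37 overlap more than 1 gene. Its longest gene-free stretch is 3 Mb, chr3:10450001-13450000, between Snx16, a sorting nexin, and Ralyl, an RNA-binding protein gene of neurons. Promoter sequences in RefSeq (build GRCm38.p6, 250 bases before to 50 after each start) matched 54 of the 104 genes. The dinucleotide CG, which reads the same on both strands, occurred in 98.4% of the region's 62 promoters and in 95.4% of all 21263 promoters of protein-coding genes in the table. A CpG-rich promoter, here at least 50% G and C with an observed-to-expected CG ratio of at least 0.6, was found for 46.8% of the region's promoters and 45.1% of all. The 5 promoters printed below lie in windows to which the results return: a peak of H3.3 (Actl6a, a subunit of chromatin remodelling complexes), a peak of γH2AX (Hltf, a DNA translocase of stalled replication forks), and windows where H3.3 differed between groups (Ect2, a gene of cytokinesis, Cpa3, a carboxypeptidase of mast cells, and Sirpb1c, a signal-regulatory protein gene). They run 5′ to 3′ on the gene's strand, with each CG in capitals. Actl6a, Ect2 and Hltf hold 21, 23 and 20 of them, and Cpa3 and Sirpb1c hold 3 and 2.
Actl6a, chr3:32708296-32708595, plus strand: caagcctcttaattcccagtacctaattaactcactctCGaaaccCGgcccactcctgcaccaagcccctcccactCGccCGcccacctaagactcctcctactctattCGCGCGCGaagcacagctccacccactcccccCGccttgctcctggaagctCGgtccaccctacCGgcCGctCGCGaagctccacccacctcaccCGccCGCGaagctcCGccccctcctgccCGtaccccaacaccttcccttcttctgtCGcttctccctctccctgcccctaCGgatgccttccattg
Ect2, chr3:27153829-27154128, minus strand: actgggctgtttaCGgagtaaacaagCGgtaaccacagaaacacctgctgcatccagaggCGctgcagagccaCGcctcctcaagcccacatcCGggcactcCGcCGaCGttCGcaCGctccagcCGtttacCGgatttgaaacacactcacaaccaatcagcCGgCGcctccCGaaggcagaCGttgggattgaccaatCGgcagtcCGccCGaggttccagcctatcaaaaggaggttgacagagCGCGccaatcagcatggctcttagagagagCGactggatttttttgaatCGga
Hltf, chr3:20057561-20057860, plus strand: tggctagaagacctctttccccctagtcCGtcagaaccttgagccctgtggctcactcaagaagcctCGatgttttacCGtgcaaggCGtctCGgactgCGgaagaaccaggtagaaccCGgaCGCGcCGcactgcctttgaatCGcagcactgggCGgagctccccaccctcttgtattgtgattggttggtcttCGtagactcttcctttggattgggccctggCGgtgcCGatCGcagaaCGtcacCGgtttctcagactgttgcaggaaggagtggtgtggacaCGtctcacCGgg
Cpa3, chr3:20242132-20242431, minus strand: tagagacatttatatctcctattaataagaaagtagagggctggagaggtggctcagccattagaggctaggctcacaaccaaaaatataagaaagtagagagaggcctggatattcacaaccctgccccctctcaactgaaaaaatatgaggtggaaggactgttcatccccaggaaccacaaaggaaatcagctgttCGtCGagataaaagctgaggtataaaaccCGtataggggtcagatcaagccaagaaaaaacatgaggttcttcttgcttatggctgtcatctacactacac
Sirpb1c, chr3:15848438-15848737, minus strand: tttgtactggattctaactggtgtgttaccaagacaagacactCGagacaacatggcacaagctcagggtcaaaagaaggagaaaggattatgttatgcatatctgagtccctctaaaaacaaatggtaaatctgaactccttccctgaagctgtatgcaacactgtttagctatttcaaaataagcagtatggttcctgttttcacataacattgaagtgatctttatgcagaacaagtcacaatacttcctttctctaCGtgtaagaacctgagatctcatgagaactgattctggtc

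Along the whole region γH2AX was higher in 3Rb than in the groups in which chromosome 3 is free. Enrichment here means log2 of a library's counts divided by those of the 3 inputs together, on a scale where the 13 autosomes outside the translocations are at 0. It was 0.34, 0.37 and 0.37 in the 3Rb libraries. In 1Rb_M it was 0.01, 0.04 and -0.06, and in 1Rb_P -0.04, -0.04 and -0.01. The 3Rb libraries were all above the other groups, and B6 stood at 0.01 among the libraries of 1 translocation. The mean was 0.36 ± 0.014 (SD, n = 3) in 3Rb against -0.02 ± 0.037 (SD, n = 6), a difference of 0.38 or 1.30-fold (two-sided exact permutation test, p = 0.0238, adjusted over 10 tests 0.0340, and 0.0238 is the smallest p that 3 against 6 allows). Without any 1 of the 3Rb libraries this and the other γH2AX measures missed the threshold, with adjusted p from 0.0714 to 0.102 in exact permutation tests, while the enrichment difference stayed between 0.37 and 0.39. That miss was fixed by the design, because the exact test with 1 3Rb library fewer allows no p under 0.05. In bulk tissue a larger share of cells with the mark and more of the mark in each cell cannot be told apart. The 3Rb group also differs from the others by its RBF/Dnj parent and its other translocations, and it has no input. The join of chromosome 3 and these differences cannot be told apart in this design.

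The difference stayed when the region was read against its own chromosome or against other centromere-proximal windows. Minus the rest of chromosome 3, γH2AX of the region was 0.29 in 3Rb and -0.07 in the other 6 libraries. Minus the proximal 32 Mb of the 13 unjoined autosomes, it was 0.28 and -0.08. Both differences were 0.36 (exact permutation test, adjusted p = 0.0340 for each). Beside them, the 3Rb mean over the proximal 32 Mb of the unjoined autosomes exceeded both 1Rb_M and 1Rb_P by 0.01.

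For H3.3 the region lay below the unjoined autosomes in every library, and the groups were close together. Enrichment was -0.23, -0.27 and -0.28 in 1Rb, -0.28, -0.24 and -0.24 in Cg, and -0.23, -0.21 and -0.21 in 3Rb. The lowest 3Rb library lay just below the highest of 1Rb, so the groups overlapped. The means were -0.22 ± 0.014 (SD, n = 3) in 3Rb and -0.26 ± 0.024 (SD, n = 6) in the others, a difference of 0.04 (two-sided exact permutation test, p = 0.0476, adjusted 0.0476). For this and the other 4 H3.3 measures, 8 of 9 tests that left out 1 library missed the threshold, the exception being the one without 1Rb replicate 1, with adjusted p from 0.0357 to 0.143 in exact permutation tests. Among them, the tests without a 3Rb library could not have reached the threshold at any values, since too few libraries remained.

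**Figure D1:**
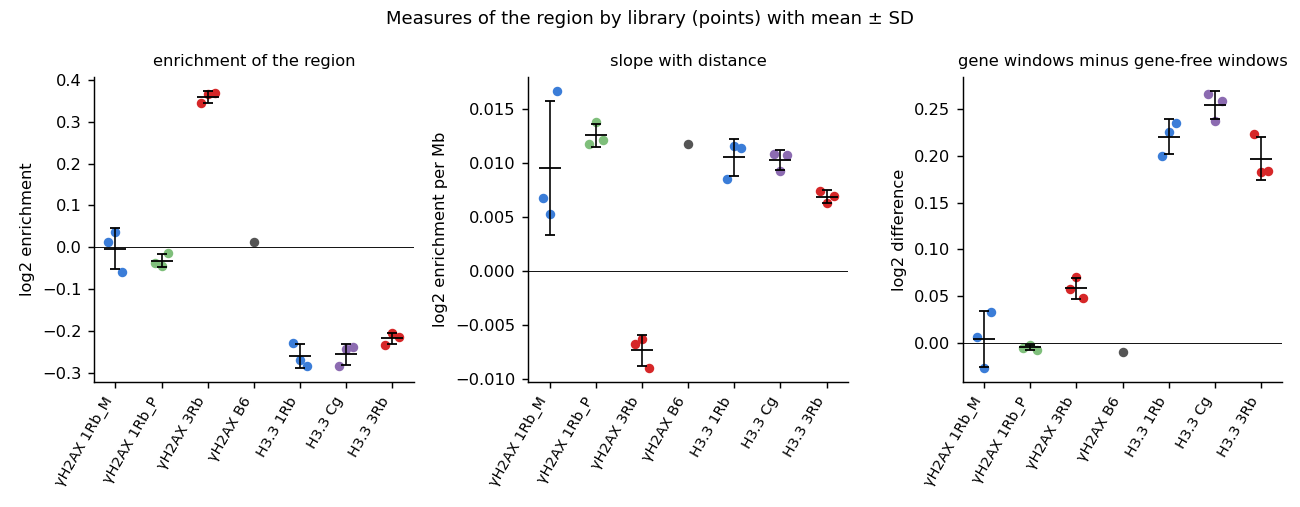
Per-library values of 3 measures of the region for γH2AX and H3.3 (points), with group means ± SD: log2 enrichment over the pooled inputs, its slope per Mb of distance, and gene windows minus gene-free windows. The 3Rb libraries stand apart in γH2AX enrichment, at 0.34 to 0.37 against -0.06 to 0.04 in the libraries of 1 translocation, and are the only ones with a falling γH2AX slope.

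With distance from the start of the chromosome, γH2AX fell in 3Rb and rose in every other group. The slope of the 1 Mb bins was -0.0067, -0.0063 and -0.0090 log2 units per Mb in the 3Rb libraries. It was 0.0067, 0.0052 and 0.0167 in 1Rb_M and 0.0118, 0.0138 and 0.0121 in 1Rb_P. The signs were opposite in all libraries, and B6, at 0.0117, rose with the groups of 1 translocation. The mean slopes were -0.0073 ± 0.0015 (SD, n = 3) and 0.0110 ± 0.0043 (SD, n = 6), a difference of -0.0184 per Mb (two-sided exact permutation test, adjusted p = 0.0340).

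The groups drew together at the far end of the region. From 3 to 7 Mb mean γH2AX enrichment was -0.18 ± 0.15 in 1Rb_M, -0.29 ± 0.038 in 1Rb_P and 0.46 ± 0.027 in 3Rb (SD, n = 3 each), and -0.24 in B6. The 3Rb mean was 1.56-fold that of 1Rb_M and 1.69-fold that of 1Rb_P. The excess of 3Rb over 1Rb_M was then 0.48 from 7 to 11 Mb, 0.51 from 11 to 15 Mb and 0.39 from 15 to 19 Mb. It was 0.28 from 19 to 23 Mb, 0.30 from 23 to 27 Mb and 0.21 from 27 to 31 Mb. In the last step, from 31 to 35 Mb, the means were 0.08 ± 0.041, 0.04 ± 0.0057 and 0.21 ± 0.023 (SD, n = 3 each), so 3Rb exceeded 1Rb_M by 1.09-fold and 1Rb_P by 1.12-fold. From 35 Mb to the end of the chromosome, 3Rb stood 0.04 above 1Rb_M and equal to 1Rb_P to 2 decimals. The free groups were lowest over the same first 4 Mb in which 3Rb was among its highest.

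At a resolution of 1 Mb, edgeR's quasi-likelihood test called 3Rb higher than 1Rb_M in 31 of the region's 32 bins (adjusted p under 0.05), against 23.3% of all bins of the genome. It called 3Rb higher than 1Rb_P in all 32 bins, against 16% of all bins. No bin of the region was called lower, against 27.0% and 21.7% of all bins, and only the calls counted here passed an unadjusted p of 0.05. The largest differences were in the bin from 5 to 6 Mb, which holds Zfhx4, a zinc-finger homeobox transcription factor gene, at 0.66 ± 0.063 (SE) over 1Rb_M and 0.80 ± 0.063 (SE) over 1Rb_P. The unbroken run of called bins ended at 34 Mb against 1Rb_M and at 36 Mb against 1Rb_P. Just past the region, the bin from 38 to 39 Mb was called lower in 3Rb, by -0.15 and -0.24. It was 1 of 24 bins called lower than 1Rb_M among the 125 bins of the rest of chromosome 3, where 21 were called higher. Against 1Rb_P, 27 of these bins were called lower and 8 higher. In 31 of the 32 bins all 3 libraries of 3Rb lay above all 6 of the others, which held for 24.0% of all bins. In the rest of chromosome 3 it held for 23 of 125 bins. In 0 bins of the region they lay below all others, against 21.8% of all bins and 17 of 125 in the rest of chromosome 3.

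The 2 free groups were called different from each other in none of the 32 bins by edgeR, and 6 bins passed an unadjusted p of 0.05. Of all bins, 3.78% were called with 1Rb_M higher and 3.78% with 1Rb_M lower. This comparison rests on 1 library: with 1Rb_M replicate 3, the one of usual X share, left out, 19 bins were called higher in 1Rb_M. Under that omission 726 of all 2673 bins were called higher and 579 lower. With replicates 1 and 2 left out, a single 1Rb_M library remained, so calls are not counted for that omission. Whether the X share of these libraries bears on the comparison was not tested. Under both omissions 3Rb remained above 1Rb_P and 1Rb_M in enrichment, by 0.37 to 0.40 against the pooled groups.

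**Figure D2:**
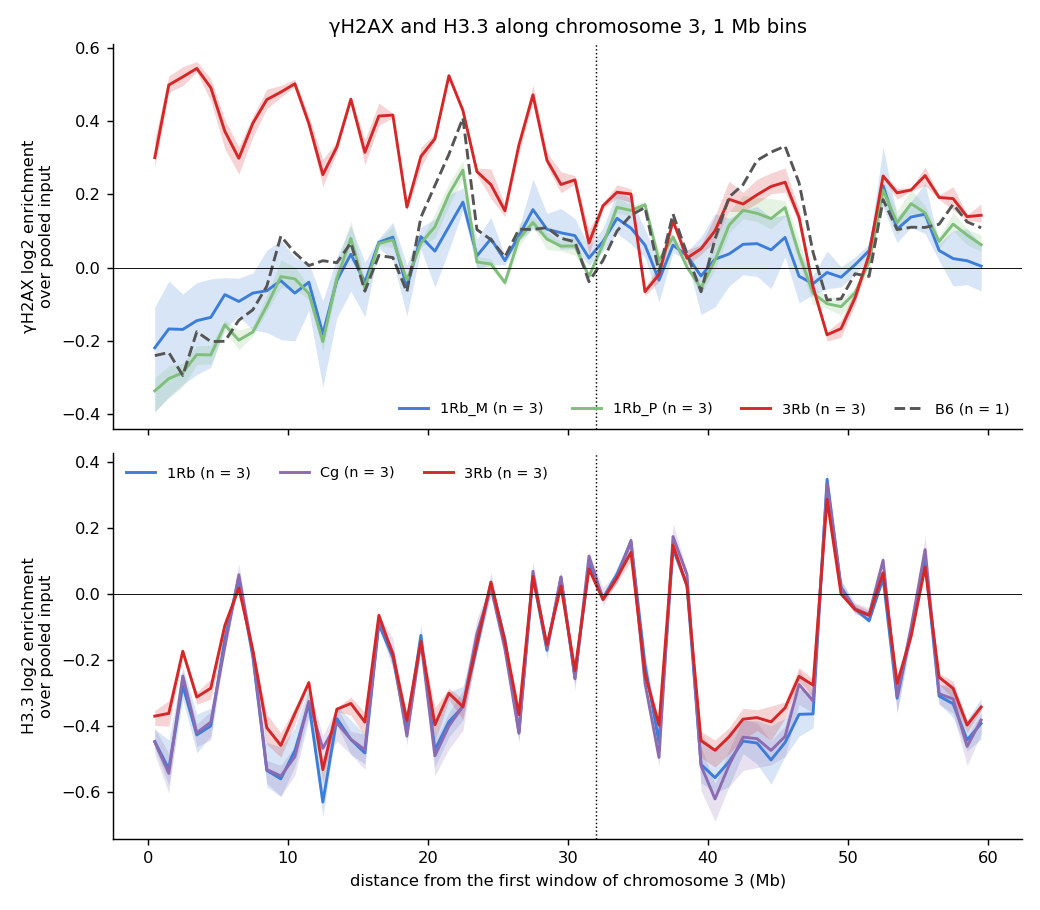
Log2 enrichment of γH2AX (top) and H3.3 (bottom) in 1 Mb bins over the first 60 Mb of chromosome 3, with group means as lines, the range over 3 libraries as bands, the single B6 library dashed, and the end of the region dotted, at a distance of 32 Mb from the first window. The 3Rb line runs from 0.46 over the first 4 Mb to 0.21 over the last 4 Mb of the region, where the groups lie closer together.

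The arm of chromosome 1 on the other side of the same join gave the same order of values. There 3Rb exceeded 1Rb_M by 0.71 and 1Rb_P by 0.79 from 3 to 7 Mb, and by 0.29 and 0.25 from 31 to 35 Mb. Over 32 Mb the excess was 0.48 and 0.46 on chromosome 1, and 0.36 and 0.39 on chromosome 3. The difference between the arms was not tested.

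H3.3 rose with distance in all groups, less so in 3Rb. The slope per Mb was 0.0074, 0.0063 and 0.0070 in the 3Rb libraries, against 0.0086, 0.0116 and 0.0114 in 1Rb and 0.0109, 0.0092 and 0.0108 in Cg. The groups did not overlap, and the difference of the means was -0.0035 (two-sided exact permutation test, adjusted p = 0.0340). From 3 to 7 Mb H3.3 enrichment was -0.42 in 1Rb, -0.41 in Cg and -0.30 in 3Rb, and from 31 to 35 Mb it was -0.06, -0.05 and -0.06. From 11 to 15 Mb, over the gene-free stretch and Ralyl, it was -0.47, -0.47 and -0.37.

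In 1 Mb bins edgeR called H3.3 higher in 3Rb than in 1Rb in 2 of 32 bins, against 2.54% of all bins, and higher than in Cg in 7 of 32, against 4.3%. None was called lower, against 3.78% and 8.68% of all bins, and between 1Rb and Cg none was called, against 1.31% of all bins higher and 2.28% lower, with 1 bin at an unadjusted p under 0.05. The bin from 4 to 5 Mb, between Hnf4g and Zfhx4, was called in both, at 0.16 ± 0.042 (SE) over 1Rb and 0.19 ± 0.042 (SE) over Cg. All 3 libraries of 3Rb were above the other 6 in 9 bins of the region, against 5.46% of all bins, and below them in 2, against 6.14%. These bin calls rest on single libraries. Leaving out 1Rb replicate 1 gave 13 calls over 1Rb and 11 over Cg, while leaving out 1Rb replicate 2 left none over 1Rb and leaving out 3Rb replicate 2 left none over Cg. Over the genome, calls higher in 3Rb moved too. Of 2673 bins they were 371 over 1Rb and 233 over Cg without 1Rb replicate 1. They were 42 over 1Rb without 1Rb replicate 2, and 51 over Cg without 3Rb replicate 2.

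**Figure D3:**
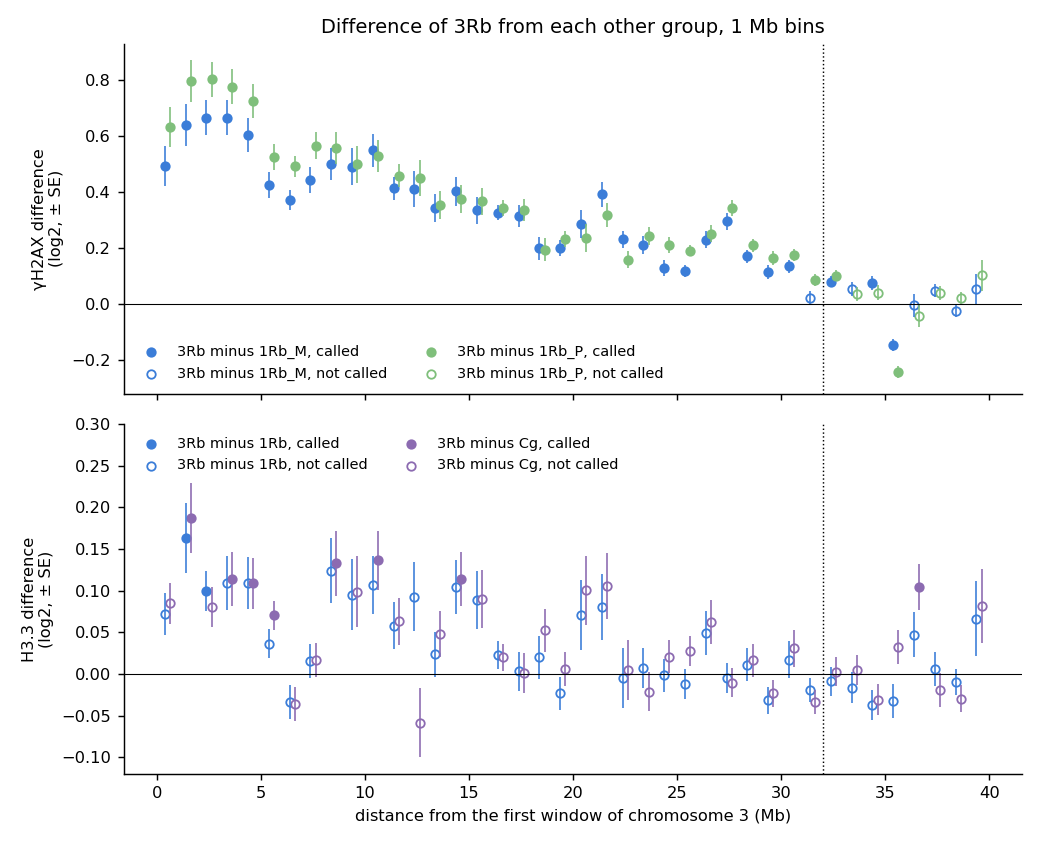
Difference of 3Rb from each other group in 1 Mb bins over the first 40 Mb of chromosome 3 (log2, ± SE, edgeR), for γH2AX (top) and H3.3 (bottom), with filled points for bins called at an adjusted p under 0.05 and a dotted line at the end of the region. The γH2AX points fall from 0.66 and 0.80 in the bin from 5 to 6 Mb to 0.02 and 0.09 in the bin from 34 to 35 Mb, while H3.3 differences reach 0.16 and 0.19 at most.

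Window by window, 638 of the 640 windows held enough counts to be tested. edgeR's quasi-likelihood test, with p-values adjusted over all windows of the genome, called γH2AX higher in 3Rb than in 1Rb_M in 528 windows and lower in 2. The same calls made up 17.9% and 20.2% of all windows. Over 1Rb_P it called 551 windows higher and 2 lower, against 10.1% and 12.8% of all windows. The median difference was 0.34 over 1Rb_M and 0.35 over 1Rb_P. Between the free groups, 3 windows were called, each higher in 1Rb_M, against 0.299% of all windows called higher and 1.06% called lower. This count changed most with the libraries used: without 1Rb_M replicate 3 it was 155 windows higher. Over the genome the same omission gave 5317 of 53118 windows higher and 8116 lower.

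Close to the chromosome's start the calls took in nearly every window. From 3 to 7 Mb and from 7 to 11 Mb, 79 of 80 windows were higher in 3Rb than in 1Rb_M in each step, and from 11 to 15 Mb all 80 were. The number fell to 49 from 27 to 31 Mb and 26 from 31 to 35 Mb, and against 1Rb_P to 60 and 34. Leaving aside windows of unusual input, the only windows before 19 Mb that were called in neither comparison were the pair chr3:16000001-16050000 and chr3:16050001-16100000, between the predicted gene Gm5150 and Ythdf3, a reader of methylated RNA.

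The excess of γH2AX did not keep to gene-free windows. Of windows with no gene, 319 of 374 were higher in 3Rb than in 1Rb_M, with a median of 0.36. Of windows with 1 gene, 175 of 227 were higher, with a median of 0.30. Of windows with more genes, 34 of 37 were higher, with a median of 0.39. The corresponding medians over 1Rb_P were 0.40, 0.30 and 0.41. In the proximal 32 Mb of the unjoined autosomes, windows with more than 1 gene had medians of -0.10 over 1Rb_M and -0.08 over 1Rb_P, and 538 of 1392 were lower in 3Rb than in 1Rb_M.

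Compared at matched distance, in steps of 4 Mb, gene windows carried slightly more γH2AX than gene-free windows in 3Rb, and on average no more in the other groups. The mean difference between gene and gene-free windows was 0.06 in 3Rb and -0.00 in the other 6 libraries (exact permutation test, difference 0.06, adjusted p = 0.0340). With every annotated gene counted in place of protein-coding genes, the difference was 0.03 and its adjusted p = 0.0952. For H3.3 the contrast of gene to gene-free windows was larger, and lower in 3Rb on average. It was 0.22, 0.18 and 0.18 in 3Rb, 0.20, 0.23 and 0.24 in 1Rb, and 0.27, 0.24 and 0.26 in Cg, so 3Rb overlapped 1Rb but not Cg. The means were 0.20 in 3Rb and 0.24 in the others (exact permutation test, difference -0.04, adjusted p = 0.0476, missed in the same 8 of 9 omissions), and with every annotated gene the difference was -0.03 with an adjusted p of 0.0529.

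H3.3 was ordered by what a window holds, γH2AX hardly. The 23 windows with a CpG-rich start had a median H3.3 enrichment of 0.24 ± 0.035 in 1Rb, 0.21 ± 0.045 in Cg and 0.21 ± 0.014 in 3Rb (SD, n = 3 each). The 27 windows with another kind of matched start stood at -0.17, -0.12 and -0.09. The 87 windows inside a gene body stood at -0.31, -0.31 and -0.28. The 371 windows with no gene and usual input were lowest, at -0.46 ± 0.054, -0.47 ± 0.043 and -0.37 ± 0.034 (SD, n = 3 each). For γH2AX the medians of the same classes, from CpG-rich start to no gene, ran from 0.31 to 0.37 in 3Rb and from -0.05 to 0.06 in 1Rb_P. A further 127 windows hold genes whose start was not matched, at 0.43 for γH2AX in 3Rb.

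**Figure D4:**
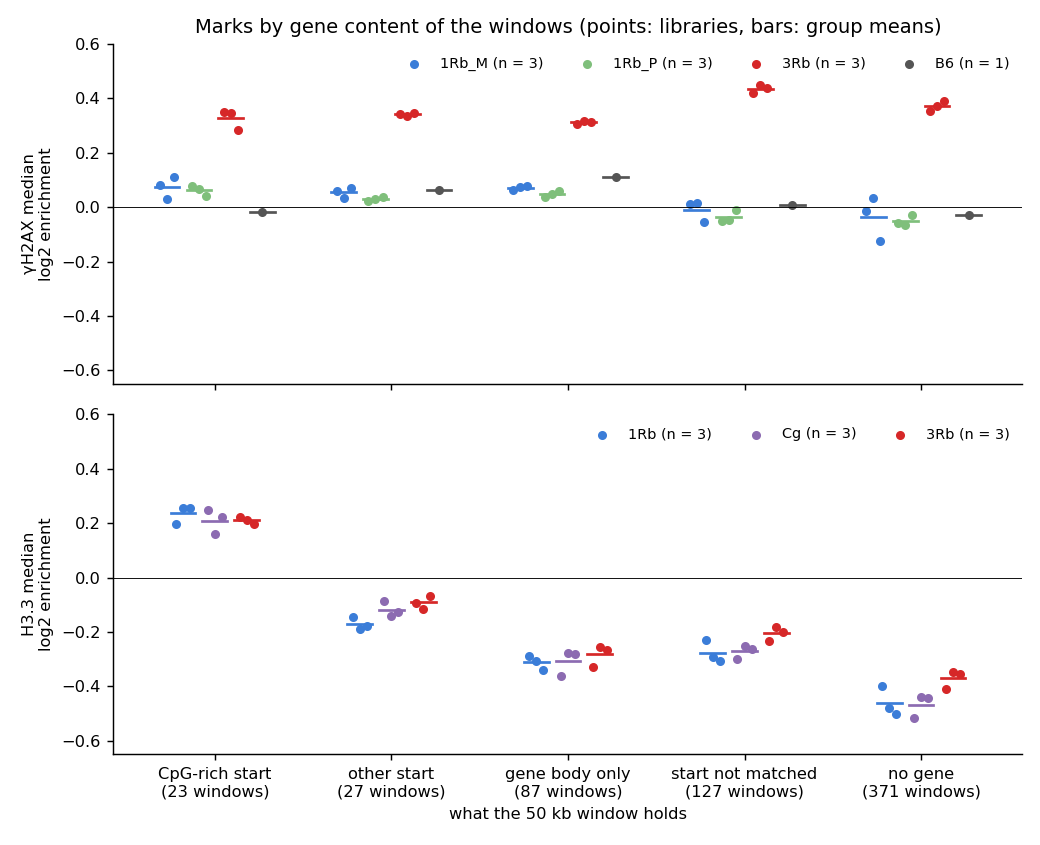
Median log2 enrichment of γH2AX (top) and H3.3 (bottom) in 5 classes of 50 kb windows, with a point for each library and a bar for each group mean. H3.3 falls from 0.24, 0.21 and 0.21 at CpG-rich starts to -0.46, -0.47 and -0.37 in windows with no gene, and in γH2AX the 3Rb points lie above the others in every class.

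Of the gene-free windows, 51 of 374 (13.6%) were called higher in H3.3 in 3Rb than in Cg and 6 lower, with a median of 0.09. Gene-free windows of the proximal unjoined autosomes had 161 of 3392 (4.75%) higher and a median of 0.06, and whether the shares differ was not tested. Over all 638 windows of the region, 65 were higher than Cg and 17 lower, against 3.34% and 6.16% of all windows. Compared with 1Rb, 24 were higher and 6 lower, against 2.08% and 4.02%. Between 1Rb and Cg, 3 were higher in 1Rb and 5 lower, against 1.08% and 2.62%. The number higher than 1Rb moved between 7, without 1Rb replicate 3, and 73, without 1Rb replicate 1, and the number higher than Cg fell to 25 without 3Rb replicate 2. Over all 53117 windows the same omissions gave 764, 2094 and 948.

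The local peaks of γH2AX, windows standing farthest above a running median of 41 windows, held genes in 7 of 8 cases, beside 41.25% of all windows of the region. The first by height over the trend held Phc3, a subunit of Polycomb repressive complexes, at chr3:30900001-30950000, where γH2AX enrichment was 0.46 in 1Rb_M, 0.53 in 1Rb_P, 1.17 in 3Rb and 0.50 in B6. Depth-scaled counts (CPM, with edgeR's TMM factors) were 18.4, 18.4 and 21.9 in 1Rb_M, 19.7, 19.8 and 21.4 in 1Rb_P, and 31.1, 32.4 and 31.2 in 3Rb. Peaks were picked on the mean of the 3 replicated groups and not in each group. The Phc3 window stood above the unjoined autosomes in every group and was higher still in 3Rb, with no overlap. The difference was 0.69 ± 0.09 (SE) over 1Rb_M and 0.64 ± 0.09 over 1Rb_P (edgeR, adjusted p = 3.69e-07 and 1.75e-06), and H3.3 there differed by 0.04 and -0.01.

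The γH2AX peaks at Mrps28, Hltf, Pik3ca and Ttc14 likewise stood above the unjoined autosomes in each replicated group and highest in 3Rb. At Mrps28, a gene of the mitochondrial ribosome, enrichment was 0.12 in 1Rb_M, 0.15 in 1Rb_P and 0.80 in 3Rb. The Mrps28 window gave 16.2, 14.5 and 14.9 CPM in 1Rb_M, 14.7, 15.4 and 16.1 in 1Rb_P, and 23.4, 24.8 and 24.4 in 3Rb, so the groups did not overlap. At Hltf, whose promoter is printed above, enrichment was 0.33, 0.32 and 0.80, with differences of 0.45 and 0.47. Pik3ca, the catalytic subunit of a lipid kinase, stood at 0.27, 0.30 and 0.64, and Ttc14 at 0.35, 0.35 and 0.57. The window of this Ttc14 peak overlaps the gene only in the window's final bases and is otherwise gene-free.

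Zbtb10, a zinc-finger transcription factor gene, was a peak of both marks. Its γH2AX CPM was 14.7, 14.5 and 13.6 in 1Rb_M, 13.5, 13.7 and 13.9 in 1Rb_P, and 23.5, 23.3 and 22.6 in 3Rb. Its H3.3 CPM was 31.8, 33.4 and 35.5 in 1Rb, 32.6, 33.0 and 35.7 in Cg, and 33.2, 32 and 31.4 in 3Rb. The γH2AX groups stood apart, by 0.70 and 0.76, while the H3.3 groups overlapped, with enrichments of 0.97, 0.99 and 0.92. The only γH2AX peak without a gene, at chr3:4150001-4200000, lay 490.2 kb past Hnf4g and 1018 kb before Zfhx4, at 0.07, 0.02 and 0.70.

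The dips of γH2AX were mostly gene-free, and in 3Rb they still lay above the unjoined autosomes. The deepest by the rule was the window next to the chromosome's first, chr3:3050001-3100000, at -0.25 in 1Rb_M, -0.44 in 1Rb_P, 0.10 in 3Rb and -0.53 in B6. Windows between Pag1 and Fabp5, Agtr1b and Tbl1xr1, Cyp7b1 and Armc1, and Gm5150 and Ythdf3 stood at 0.02 to 0.16 in 3Rb and at -0.45 to -0.16 in 1Rb_M and 1Rb_P. The dip at chr3:6800001-6850000, before Pkia, a protein kinase inhibitor gene, was at -0.39 and -0.58 in the free groups and 0.47 in 3Rb. The remaining dips lay at Sirpb1b and Sirpb1c, members of a family of closely similar receptors of myeloid cells. The Sirpb1b dip is the window starting at 15450001, which overlaps that gene (chr3:15495754-15575067) only over the window's last few kb. The dips at Sirpb1b and Sirpb1c stood at 0.22 and 0.08 in 3Rb, and at 0.14 and 0.12 in B6 against -0.41 to -0.32 in 1Rb_M and 1Rb_P.

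The 8 peaks of H3.3 all held genes, beside 41.25% of all windows of the region. The window of Actl6a, Mrpl47 and Ndufb5, the last 2 of mitochondria, stood at 0.70 in 1Rb, 0.71 in Cg and 0.67 in 3Rb. Tbl1xr1, a subunit of a nuclear corepressor complex, stood at 0.79, 0.80 and 0.74, and the window of Gpr160 and Phc3 at 0.76, 0.83 and 0.66. Ythdf3 gave 0.54, 0.61 and 0.46, Mtfr1 with Pde7a 0.63, 0.62 and 0.55, and Ttc14 with Ccdc39, a gene of ciliary assembly, 0.67, 0.75 and 0.67. At Fabp12, Impa1 and Slc10a5 the values were 0.72, 0.75 and 0.58, and 3Rb was lower than Cg by -0.16 (edgeR, adjusted p = 0.043). All 8 windows stood above the unjoined autosomes in each of the 3 groups.

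The dips of H3.3 lay in gene-free windows or in windows that overlap genes. The window chr3:3050001-3100000 was again a dip, at -0.69 in 1Rb, -0.81 in Cg and -0.70 in 3Rb. Sirpb1a stood at -0.83, -0.61 and -0.87, and Sirpb1c, in the window chr3:15750001-15800000, at -0.92, -0.53 and -0.77, so Cg was the highest group at both. That Sirpb1c window overlaps the gene only over the window's last few kb. The gene-free window between Il7, a cytokine gene of lymphocytes, and Stmn2, a neuronal tubulin regulator, stood at -0.65, -0.62 and -0.72, and the one before Ttc14 at -0.60, -0.60 and -0.53. Egfem1 (-0.58, -0.53 and -0.46), Pag1 (-0.28, -0.40 and -0.33) and the window between Slc7a14 and Kcnmb2 (-0.52, -0.57 and -0.47) made up the rest. Only 3 of the 8 H3.3 dips were also picked with a running median of 21 windows.

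The 2 marks did not trace each other closely across the 635 windows of usual input. Pearson's r between γH2AX and H3.3 enrichment was 0.17 in 3Rb, 0.40 for 1Rb_M with 1Rb and 0.26 for 1Rb_P with 1Rb. These are descriptions over neighbouring windows that share libraries and inputs.

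The window most raised in 3Rb over 1Rb_M was chr3:7500001-7550000, over most of Zc2hc1a (chr3:7503415-7553848). γH2AX there was 12.3, 12.2 and 10.9 CPM in 1Rb_M, 10.7, 11 and 10.1 in 1Rb_P, and 21.6, 22.5 and 22.5 in 3Rb. Every 3Rb library lay far above every other. The difference was 0.91 ± 0.06 (SE), or 1.88-fold, over 1Rb_M and 1.06 ± 0.06, or 2.09-fold, over 1Rb_P (edgeR, adjusted p = 1.9e-13 and 1.63e-14). H3.3 at Zc2hc1a differed by 0.15 from 1Rb and 0.01 from Cg, and neither was called.

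Zfhx4, spanning chr3:5218218-5415861, held 2 of the windows most raised in 3Rb. In the window chr3:5200001-5250000 γH2AX was 11.1, 12.2 and 8.81 CPM in 1Rb_M, 8.69, 8.83 and 8.93 in 1Rb_P, and 17.8, 18.3 and 18.8 in 3Rb. The differences were 0.78 and 1.05 (edgeR, adjusted p = 2.99e-09 and 1.13e-11), and in the window chr3:5350001-5400000 they were 0.85 and 0.98. In Zfhx4 1Rb_M replicate 3 sat with 1Rb_P and below the other 1Rb_M libraries. The other windows named for their rise were gene-free: chr3:4650001-4700000 with 0.75 and 1.07, chr3:5700001-5750000 with 0.80 and 0.90, and the γH2AX dip before Pkia with 0.84 and 1.05.

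Against this rise, 1 window inside Nlgn1 went the other way for both marks. Nlgn1, a long gene for a synaptic adhesion protein, spans chr3:25421808-26332866, and the window chr3:25500001-25550000 lies within it. γH2AX there was 21.1, 22.6 and 26.3 CPM in 1Rb_M, 27.8, 26.1 and 26.2 in 1Rb_P, and 12, 12.1 and 11.9 in 3Rb. H3.3 was 13.9, 14.0 and 14.9 CPM in 1Rb, 14.4, 16.4 and 15.6 in Cg, and 7.52, 8.65 and 8.50 in 3Rb. Each 3Rb library was well below all others for both marks. γH2AX was 1.94-fold lower than in 1Rb_M (-0.96 ± 0.08, SE) and 2.23-fold lower than in 1Rb_P (-1.15 ± 0.08), with edgeR's adjusted p = 1.02e-10 and 2.17e-12. H3.3 was 1.74-fold lower than in 1Rb (-0.80 ± 0.06) and 1.86-fold lower than in Cg (-0.89 ± 0.06), with edgeR's adjusted p = 4.79e-13 and 6.02e-15.

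The Nlgn1 window was the second peak of γH2AX by height over the trend, with enrichments of 0.89 in 1Rb_M, 1.11 in 1Rb_P and 1.69 in B6, but -0.04 in 3Rb. The inputs of 1Rb_M, Cg and B6 gave it 15.9, 16 and 14.4 CPM, close to their medians over the region of 16.8, 16.9 and 16. The window before it in Nlgn1 was higher in 3Rb, by 0.32 and 0.19. The window after it was lower by -0.10 and -0.17 (edgeR, adjusted p = 0.154 and 0.0286). Without an input of 3Rb, a strain difference in copy number or read mapping and a change of the marks cannot be told apart.

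Both marks were higher in 3Rb in the window chr3:20200001-20250000. The window holds all of Cpa3 (chr3:20215616-20242209) and only the edge of the neighbouring carboxypeptidase gene Cpb1 (chr3:20249479-20275733). H3.3 there was 13.2, 11.8 and 11.6 CPM in 1Rb, 11.4, 12.4 and 11.9 in Cg, and 17.0, 17.9 and 17.6 in 3Rb. This was the H3.3 window most raised over both groups, by 0.52 ± 0.05 (SE, 1.44-fold) and 0.57 ± 0.05 (1.49-fold), with edgeR's adjusted p = 4.42e-10 and 2.05e-11. γH2AX was 15.6, 12.7 and 13.5 CPM in 1Rb_M, 13.5, 13 and 13.7 in 1Rb_P, and 20.2, 21.3 and 21.2 in 3Rb, differences of 0.59 and 0.64 (edgeR, adjusted p = 1.23e-08 and 2.49e-09). H3.3 in the next window, which holds nearly all of Cpb1, was not called. The Cpa3 promoter printed above holds 3 CG. The inputs gave 16.6, 15.6 and 16.8 CPM, again with none from 3Rb.

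At the Sirpb1 genes H3.3 differed between groups, in a pattern that was not the same in each window. In the window of Sirpb1c, H3.3 was 9.38, 9.06 and 9.14 CPM in 1Rb, 12.9, 14.2 and 13.3 in Cg, and 9.63, 10.2 and 9.84 in 3Rb. Cg, the parental line without a translocation, stood above both crosses. 3Rb was lower than Cg by -0.43 and 1Rb by -0.54 (edgeR, adjusted p = 1.07e-06 and 1.66e-07), while 3Rb and 1Rb differed by 0.11 (edgeR, adjusted p = 0.443). The input libraries also differed there, at 14.4 CPM in the input named 1Rb_M, whose given strain is that of 1Rb_P, 21.2 in Cg and 17.2 in B6, and their part in the result was not tested. In the Sirpb1b window chr3:15500001-15550000, 1Rb was lower than Cg by -0.42 and than 3Rb, which exceeded it by 0.38, with inputs of 14.3, 21.4 and 19.4 CPM. The difference of 3Rb from Cg in that window was -0.04. Reads of these near-identical genes may be shared between copies, so their values are uncertain.

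**Figure D5:**
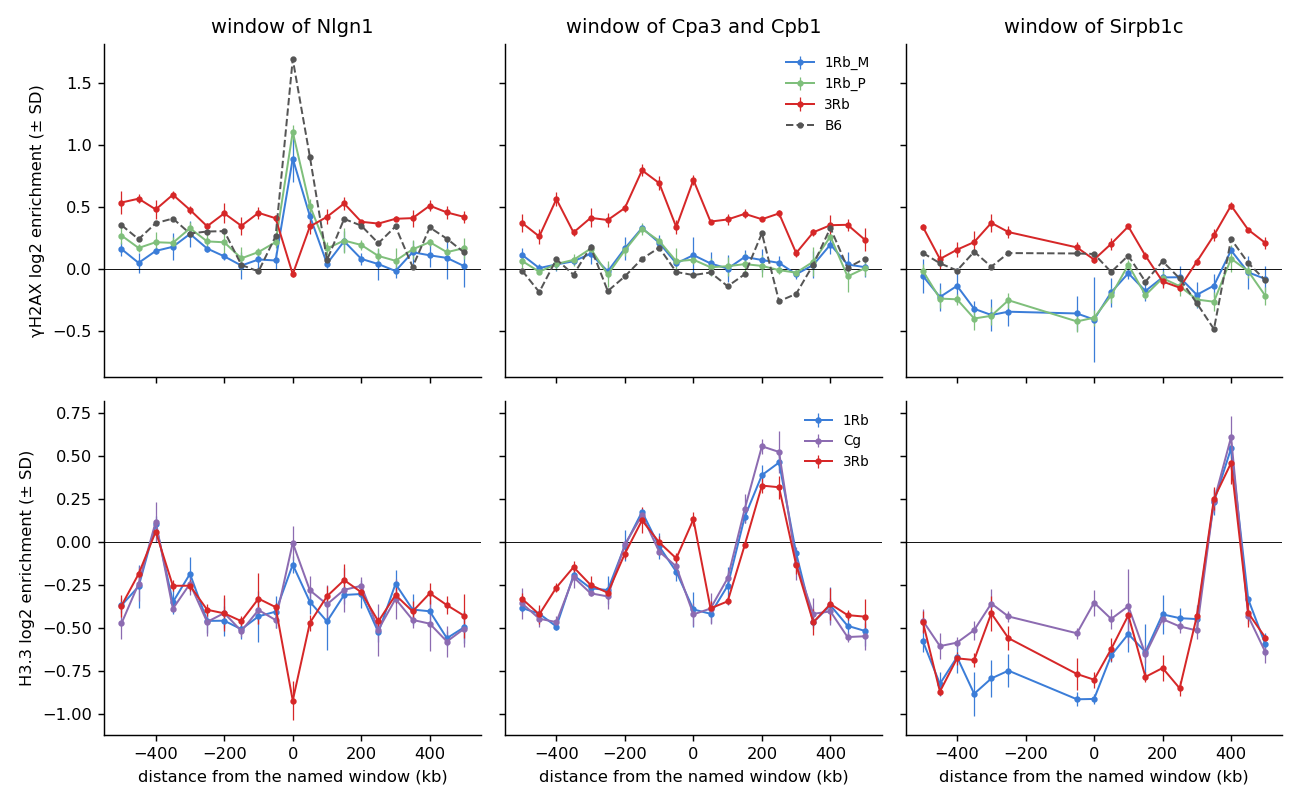
Log2 enrichment of γH2AX (top) and H3.3 (bottom) in 50 kb windows within 500 kb of the windows of Nlgn1, Cpa3 with Cpb1, and Sirpb1c, with group means ± SD and the single B6 library dashed (windows of unusual input left out). At Nlgn1 the 3Rb lines drop to -0.04 and -0.92 in 1 window, and at Sirpb1c the Cg line of H3.3 stands above the others.

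Other H3.3 differences were smaller. At the promoter of Ect2, in the window shared with Nceh1, a cholesterol ester hydrolase gene, H3.3 was 21.4, 24.4 and 20.7 CPM in 1Rb, 22.6, 20.3 and 22 in Cg, and 27.9, 27.2 and 27.2 in 3Rb. The groups did not overlap, and the differences were 0.31 and 0.34 (edgeR, adjusted p = 6.96e-05 and 1.75e-05), beside γH2AX differences of 0.51 and 0.57. At chr3:3350001-3400000, 108 kb before Hnf4g, a nuclear receptor gene, H3.3 was higher by 0.32 and 0.35 and γH2AX by 0.79 and 0.92. H3.3 was lower in 3Rb between Gm5150 and Ythdf3, at chr3:16050001-16100000, by -0.41 and -0.36, in a window where γH2AX did not pass the test in either comparison (-0.11 and -0.02). H3.3 was also lower at Agtr1b, an angiotensin receptor gene, by -0.17 and -0.20.

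Lists of genes by family and function were read next. They hold 64 names. Of these, 31 were read in the window of a matched promoter start. The others were read in the window of the gene's lowest coordinate, which for a gene on the minus strand is its end. Of all tested windows of the region, 82.8% were higher in 3Rb than in 1Rb_M and 86.4% than in 1Rb_P, with medians of 0.34 and 0.35, so a list with most or all of its windows called is close to the region as a whole. All 3 windows of the fatty acid-binding protein genes were higher in γH2AX in 3Rb than in both free groups, with medians of 0.50 and 0.60, and Fabp9, expressed in sperm, shared its window with Pmp2, of myelin, at 0.52 and 0.65. All 3 windows of the carbonic anhydrase genes were higher, with medians of 0.50 and 0.53, and Car1, of red blood cells, stood at 0.52 and 0.55. In the windows read for both families H3.3 was called in no comparison of 3Rb. Fabp12 also reaches into the window shared with Impa1, which was not read for it here and where 3Rb was lower than Cg. The 3 Sirpb1 windows were higher in γH2AX, with medians of 0.44 and 0.46.

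Genes active in the male germ line lay near the region's own level. All 6 windows of the germ cell list, which holds Spata16, of the sperm acrosome, and Actrt3, an actin-related protein of sperm heads, were higher in γH2AX in 3Rb, with medians of 0.37 and 0.39. H3.3 in these 6 windows was called in no comparison of 3Rb, but other windows that Fabp12 and Spata16 overlap were lower in 3Rb than in Cg. Of 16 windows of broadly expressed genes, 15 were higher in both comparisons, with medians of 0.37 and 0.43, beside the region's 0.34 and 0.35. Pex2, of peroxisome assembly, stood at 0.75 and 0.91, and E2f5, a cell cycle transcription factor, at 0.56 and 0.58. The median over all tested windows of the genome was 0.01 over 1Rb_M and 0.00 over 1Rb_P.

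Transcription factor genes of development included the lowest window of the lists. Of their 7 windows, 6 were higher in both comparisons, with medians of 0.34 and 0.39, Hnf4g among them at 0.62 and 0.87. The exception was the window of Sox2, a pluripotency factor, which overlaps the gene only in the final bases of the window: γH2AX was lower in 3Rb by -0.14 than in 1Rb_M (edgeR, adjusted p = 0.0423) and by -0.11 than in 1Rb_P (adjusted p = 0.169). The Sox2 call was lost with DESeq2 and in 5 of 9 fits that left out 1 library. Of 10 windows of neuronal and long genes, 6 were higher than in 1Rb_M and 7 than in 1Rb_P, with medians of 0.19 and 0.20. Those called in neither, Pld1 (0.09 and 0.12), Fndc3b (0.09 and 0.13) and Pex5l (0.05 and 0.10), and Tnik (0.02 and 0.18), called against 1Rb_P alone, all lie beyond 27 Mb, whereas Ralyl, near 13 Mb, stood at 0.63 and 0.64.

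A mixed list, which held Agtr1b, Cp, Slc2a2, Tnfsf10, Ghsr, Cpa3, Cpb1, Crh and Il7, had 7 of 9 windows higher than in 1Rb_M. Against 1Rb_P it had 8 higher, and the medians were 0.32 and 0.36, shares and levels near those of the region. Il7 stood at 0.78 and 0.87, and Tnfsf10, a death receptor ligand, near 27 Mb, at -0.02 and 0.08 without a call. In H3.3, the lists gave few calls. Beside Cpa3 and Ect2, 3Rb was higher than Cg at Bhlhe22 (0.17), a neural transcription factor gene, Ralyl (0.23) and Naaladl2 (0.19), and higher than 1Rb at Il7 (0.20). It was lower than Cg at Impa1 (-0.16), an inositol phosphatase gene, at Sirpb1c and, as against 1Rb, at Agtr1b.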

How the data were processed

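Whole-testis DNA was immunoprecipitated for γH2AX or H3.3 and sequenced, and the authors deposited whole-number read counts per 50 kb window for 22 libraries. CASAVA 1.8 and BWA are named in the submitters' processing notes; how duplicates and multiply mapped reads were treated is not given in the sources used here. Chromosome lengths match mm10 (GRCm38.p6), and protein-coding genes and promoters came from RefSeq tables of that assembly.

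Counts of the 9 libraries of the replicated groups of each mark were fitted with edgeR 4.0.16 (R 4.3.3; TMM, quasi-likelihood, windows of a mean count of at least 10, Benjamini-Hochberg over all 53118 γH2AX or 53117 H3.3 windows, called at an adjusted p under 0.05), and again on 1 Mb bins. Enrichment is log2 of a library over the 3 pooled inputs, with 0.5 added to window counts, relative to the 13 unjoined autosomes (2, 4, 5, 6, 7, 10, 11, 13 and 15 to 19). Measures with 1 value per library were compared by exact permutation with scipy 1.17.1. Replicates of a group differed by more than counting error (chi-square per degree of freedom 1.38 to 34.6), so none was merged. On simulated counts of γH2AX in 3Rb and 1Rb_M over 53118 windows, the fit recovered 94.2% of windows changed by a log2 of 0.5 and 99.0% of those changed by 1. Only 200 windows were changed there, each drawn independently, and no shift shared by a whole library was simulated. Recovery in the measured comparison may therefore differ. The counting errors given cover counting alone.

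Peaks and dips are the 8 windows per mark farthest above and below a running median of 41 windows, and named differences are the 4 called windows of largest difference per direction and comparison, at least 6 windows apart and of usual input (0.5 to 2 times the genome median). Listed genes were also named, and the windows beside Nlgn1 and Cpa3, the bin at 38 Mb and the pair of windows before Ythdf3 were singled out after their values were seen. The region, lists and tests were chosen with earlier results of these data known. Alternatives were DESeq2 1.42.0, other scalings, filters, inputs, pseudocounts, a replicate block and leaving out libraries.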

Additional observations from a re-analysis of the deposited data

How the results depend on the processing

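Of 509 values of 33 named windows under the alternatives, 476 kept their call, 33 lost it and none changed sign; the losses fell on 7 windows, among them those of Sox2 and, between 1Rb_M and 1Rb_P, of Tnik and Fabp12. Replicate numbers did not pair the libraries (same-number correlations were not all above 0.1), so the replicate block is given only here. Under it every measure kept its value with an adjusted p of 0.106 to 0.148 (γH2AX 0.38, 0.36, 0.36, -0.0184 and 0.059; H3.3 0.040, 0.032, 0.042, -0.0035 and -0.040, for enrichment, region minus rest, region minus unjoined arms, slope and gene contrast), where the smallest unadjusted p is 0.0741. The block also gave 1 window lower in 3Rb than 1Rb_M, and 0 H3.3 bins higher than 1Rb or Cg. With every annotated gene the gene contrast was 0.026 for γH2AX and -0.032 for H3.3. DESeq2 called 1 window lower in 3Rb against 1Rb_M and 1 against 1Rb_P, and 0 higher in 1Rb_M than 1Rb_P. Scaling by library totals gave 9 windows lower than 1Rb_M, 6 windows and 7 bins higher in 1Rb_M than 1Rb_P, 4 and 11 H3.3 bins higher than 1Rb and Cg, and 1 bin lower in 1Rb than Cg; over the genome it moved the 3Rb against 1Rb_M calls from 9507 higher and 10710 lower to 4492 and 16177. Leaving out both 1Rb_M libraries of low X share, chosen after seeing the data, gave 4 windows lower than 1Rb_M, 8 windows and 3 bins higher and 69 windows and 13 bins lower in 1Rb_M than 1Rb_P, and γH2AX measures of 0.40, 0.39, 0.39, -0.0209 and 0.054 (adjusted p = 0.0571). Leaving out 1 library, windows lower in 3Rb ranged from 1 to 3 (1Rb_M) and 1 to 2 (1Rb_P), and windows of 1Rb_M against 1Rb_P from 0 to 155 higher and 0 to 10 lower. Over the genome, calls of 1Rb_M against 1Rb_P ranged from 8 to 5317 windows higher and 128 to 8116 lower. The H3.3 windows ranged from 7 to 73 higher and 4 to 11 lower than 1Rb, 25 to 89 and 10 to 20 against Cg, and 1 to 4 and 4 to 10 for 1Rb against Cg. Bins of 1Rb_M against 1Rb_P ranged from 0 to 19 higher and 0 to 2 lower, H3.3 bins from 0 to 13 (1Rb) and 0 to 11 (Cg) higher, and 0 to 1 lower for 1Rb against Cg. The γH2AX measures ranged from 0.37 to 0.39, 0.34 to 0.37, 0.35 to 0.38, -0.0195 to -0.0172 and 0.053 to 0.065 (exact permutation, adjusted p 0.0476 to 0.102), and the H3.3 measures from 0.035 to 0.048, 0.028 to 0.037, 0.036 to 0.048, -0.0039 to -0.0032 and -0.054 to -0.034 (adjusted p 0.0357 to 0.143). The causes were not tested, beyond the fewer libraries of some alternatives. With a 3Rb library or both 1Rb_M libraries of low X share left out, the exact tests could not reach 0.05 at any values. Of 8 peaks and 8 dips per mark, a median of 21 windows kept 7, 6, 6 and 3. Single windows of the shallower B6 library, and any window where strains map differently, are limited by depth and by the lack of a 3Rb input.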
